A study of Mus musculus with 12 samples.

Results

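The macrophage activation state genes are 10 genes, 4 of the inflammatory state (Nos2, Acod1, Il1b and Tnf) and 6 of the alternative state (Arg1, Mrc1, Chil3, Trem2, Cd163 and Marco). They were taken by symbol from the 55573 genes of each library, and all 10 were found. They were followed in polyadenylated RNA of the mouse breast cancer line PB3, labelled as negative for the oestrogen receptor, the progesterone receptor and Her2. The 4 groups of 3 libraries were ERI-R, PAC-R and VIN-R, which are resistant clones selected with eribulin (spelled Erubilin in the labels), paclitaxel or vinorelbine, each at 300, 500 and 800 nM, and Control, the untreated parental cells. All 4 groups were grown in culture in DMEM/F12 with serum, and the labels name no macrophages. Whether the 3 libraries of a group came from different cultures is not stated, and the p-values cover only the variation among these libraries.

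Macrophages exposed to interferon gamma and bacterial products switch on the nitric oxide synthase Nos2, the itaconate-making enzyme Acod1 and the cytokines Il1b and Tnf, largely through NF-kappaB and interferon signalling. Macrophages exposed to interleukin 4 or 13 instead raise the arginine-splitting enzyme Arg1, the mannose receptor Mrc1 and the chitinase-like protein Chil3. Trem2 is a lipid-sensing receptor of tissue and tumour macrophages, Cd163 takes up haemoglobin bound to haptoglobin, and Marco is a scavenger receptor for bacteria and particles. In tumours the states are usually mixed.

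Of the 12 libraries, 8 had Lyz2, a lysozyme of the myeloid lineage, above 100 CPM (counts relative to the library total, scaled by TMM). These were replicates 1 and 2 of ERI-R, PAC-R and VIN-R and replicates 2 and 3 of Control, so each group had 2. Lyz2 stood between 182 CPM in VIN-R 1 and 1399 CPM in PAC-R 1 in these, and at 0 in the other 4 libraries, so no library lay near the threshold. Csf1r, the receptor for the growth factor CSF1 and a defining gene of macrophages, ran between 36.9 and 209 CPM in the 8 libraries and reached at most 0.746 CPM in the other 4. Of 25 macrophage identity genes, 23 were above 1 CPM in all 8. In ERI-R, PAC-R, VIN-R and Control alike, the third library, ERI-R 3, PAC-R 3, VIN-R 3 or Control 1, had almost no such transcripts. Library totals lay between 11141028 and 13454395 expected counts, so that the floor of 3 counts lies at 0.223 to 0.269 CPM depending on the library. In bulk RNA, fewer macrophages and less of a transcript in each macrophage cannot be told apart.

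Transcripts of both sets of members were present together in the 8 libraries, and those of the inflammatory genes were far more abundant. Bulk levels do not show whether any cells were in the alternative state. Levels can be compared between genes in TPM, which the authors corrected for transcript length. The 4 inflammatory members summed to between 381 and 2815 TPM, against between 18.1 and 228 TPM for the 6 alternative members, which is 10.6 to 21.02 times as much within a library. Even the lowest inflammatory member stood 2.07 to 3.7 times above the highest alternative member of the same library. The lowest was Nos2 or Tnf, and the highest alternative member was Chil3 or Trem2.

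Acod1 and Il1b led in every one of the 8 libraries, and their ranges overlapped in all 4 groups. Within a library, Il1b was above Acod1 except in Control 3 and VIN-R 2. Il1b averaged 397 TPM in ERI-R, 832 TPM in PAC-R, 507 TPM in VIN-R and 455 TPM in Control, and Acod1 346, 776, 567 and 434 TPM in the same order of groups. Nos2 and Tnf came next, and their ranges also overlapped in all 4 groups. Within a library, Nos2 was above Tnf in both ERI-R libraries and in PAC-R 2, and below it in the others. In VIN-R each neighbouring pair in the order overlapped down to Marco. Trem2 and Chil3 followed, then Arg1, Mrc1 and Marco, and Cd163 was last in every library. The step down to Cd163 was beyond the spread of the 2 libraries in every group, with 1.44 TPM in ERI-R, 0.170 TPM in PAC-R, 0.205 TPM in VIN-R and 0.230 TPM in Control.

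**Figure D1:**
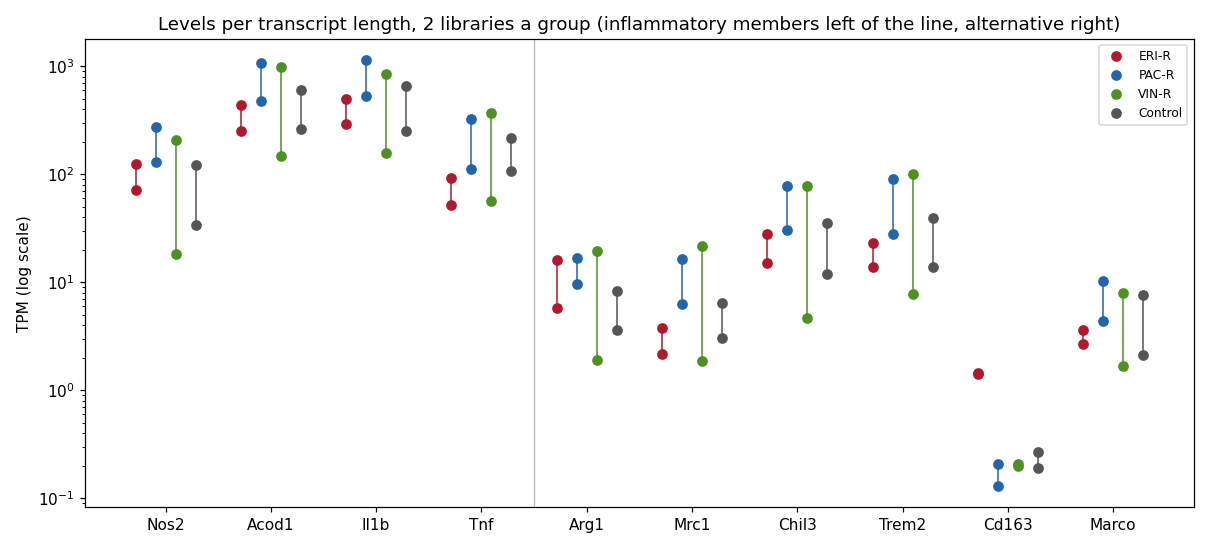
TPM (log scale) of the 10 members in the 8 libraries with Lyz2 above 100 CPM, 2 points a group joined by a line, with ERI-R, PAC-R, VIN-R and Control side by side for each gene. Within each library the inflammatory members lie above the alternative ones. Between libraries, the range of Nos2 overlaps those of Trem2 and Chil3 in VIN-R and Control, and those of Mrc1 and Arg1 in VIN-R. In VIN-R the range of Tnf also overlaps those of Trem2 and Chil3. Cd163 is the only member whose ERI-R points stand clear of every other group.

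The sequence before the start site is shown for 4 members, a pair of inflammatory cytokines and the alternative members Trem2 and Cd163, since Cd163 is the member that did not follow the rest. Each is the 250 bases upstream of the start on the gene's own strand, from RefSeq (GRCm38.p6), where 8 of the 10 members had an entry. Capitals mark 3 motifs searched on both strands, none of which overlapped another in these 4 windows: TATAAA, the NF-kappaB letters GGGANNNNCC and the AP-1 letters TGANTCA. The windows are chr2:129371140-129371389 (minus strand), chr17:35202008-35202257 (minus), chr17:48346151-48346400 (plus) and chr6:124304401-124304650 (plus), and that of Cd163 also holds an exon of the annotated gene Gm25311.
Il1b: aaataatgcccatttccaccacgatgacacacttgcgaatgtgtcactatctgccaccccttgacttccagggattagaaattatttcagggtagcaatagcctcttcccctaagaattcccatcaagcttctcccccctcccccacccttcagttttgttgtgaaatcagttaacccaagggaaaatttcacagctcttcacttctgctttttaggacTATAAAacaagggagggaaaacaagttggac
Tnf: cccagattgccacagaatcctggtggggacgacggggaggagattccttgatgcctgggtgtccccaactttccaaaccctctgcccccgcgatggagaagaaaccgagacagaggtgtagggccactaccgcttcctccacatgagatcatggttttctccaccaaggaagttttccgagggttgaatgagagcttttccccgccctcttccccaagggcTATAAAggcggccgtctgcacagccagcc
Trem2: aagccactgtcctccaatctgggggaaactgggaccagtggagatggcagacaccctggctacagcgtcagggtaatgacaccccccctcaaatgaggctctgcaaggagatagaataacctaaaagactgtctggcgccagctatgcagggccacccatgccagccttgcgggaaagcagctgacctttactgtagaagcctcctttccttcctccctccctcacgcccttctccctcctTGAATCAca
Cd163: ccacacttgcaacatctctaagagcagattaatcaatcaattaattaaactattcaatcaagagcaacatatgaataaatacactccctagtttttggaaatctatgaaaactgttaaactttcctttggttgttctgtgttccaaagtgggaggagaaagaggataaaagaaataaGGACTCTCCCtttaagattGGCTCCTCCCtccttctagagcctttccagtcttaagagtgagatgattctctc
Il1b held TATAAA from base -31 to -26 and Tnf from -29 to -24, letters that 12.4% of all 32851 RefSeq promoter windows of this length hold. Acod1, not printed, held them from -28 to -23. Trem2 held an AP-1 match from -9 to -3, where 6.75% of windows have one. Cd163 held 2 matches to the NF-kappaB letters, from -73 to -64 and from -54 to -45, and 17.6% of windows have at least 1. Acod1, Mrc1, Chil3 and Marco each held 1 such match too, at -55, -11, -231 and -29. These are matches of letters and not shown sites, and a window without them says nothing of the factor.

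Among the inflammatory members, the level differed up to several fold between libraries of 1 line, most in VIN-R. Nos2, on chromosome 11 (78920787 to 78960254 in GRCm38), makes nitric oxide from arginine. Replicates 1 and 2 had 255 and 164 CPM in ERI-R, 783 and 328 CPM in PAC-R, and 55.6 and 573 CPM in VIN-R, against 321 and 84.2 CPM in Control 2 and 3. VIN-R 2 was far above VIN-R 1. Of these libraries both of PAC-R were above those of ERI-R and, by little, of Control, each other pair of groups overlapped, and the other 4 libraries had 0 counts.

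Acod1, on chromosome 14 (103046977 to 103056573), makes itaconate from a citric acid cycle intermediate. It had 544 and 353 CPM in the ERI-R libraries, 1884 and 736 in PAC-R, 270 and 1659 in VIN-R, and 980 and 391 in Control, in the same library order. Again VIN-R 1 was lowest and PAC-R 1 highest. Of these libraries both of ERI-R were below both of PAC-R, each other pair of groups overlapped, and the other 4 libraries were at 0.

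Il1b, on chromosome 2 (129364570 to 129371139), encodes the fever-inducing cytokine interleukin 1 beta. It had 293 and 196 CPM in the ERI-R libraries, 933 and 384 in PAC-R, 135 and 674 in VIN-R, and 498 and 180 in Control. Its order of libraries was close to that of Acod1, with 0 in the other 4 libraries. Its exons overlap the antisense gene Il1bos, and the strand setting of the counting is not given in the sources used here. Il1bos reached at most 5 expected counts in any library.

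Tnf, on chromosome 17 (35199381 to 35202007), encodes tumour necrosis factor. It had 68.4 and 43.3 CPM in the ERI-R libraries, 341 and 104 in PAC-R, 60.9 and 373 in VIN-R, and 209 and 96.1 in Control. It was the one inflammatory member seen outside the 8 libraries, at 4.41 CPM in ERI-R 3, while PAC-R 3, VIN-R 3 and Control 1 had 0. Of the 8 libraries both of ERI-R were below those of PAC-R and Control, whereas over all 3 libraries of each group the values overlapped.

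The alternative members were lower, and Arg1, Mrc1, Trem2 and Cd163 were also present in libraries without Lyz2. Arg1, on chromosome 10 (24915221 to 24927484), competes with Nos2 for arginine. It had 10.3, 4.27 and 3.46 CPM in ERI-R 1 to 3, 15.6, 8.0 and 0.821 in PAC-R 1 to 3, 1.84, 17.3 and 1.70 in VIN-R 1 to 3, and 0.722, 7.12 and 2.88 in Control 1 to 3. Arg1 was present in all 12 libraries, and its mean in the 4 libraries without Lyz2 was 19.9% of its mean in the 8.

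Mrc1, on chromosome 2 (14229392 to 14332057), had 10.04, 6.47 and 0 CPM in the ERI-R libraries, 61.0, 20.7 and 0.821 in PAC-R, 7.27, 76.8 and 1.62 in VIN-R, and 0.505, 21.7 and 9.87 in Control, each in replicate order. Its highest libraries were VIN-R 2 and PAC-R 1, as for the inflammatory members. Over all libraries the 4 groups overlapped, whereas of the 8 libraries both of ERI-R were below both of PAC-R. Chil3, on chromosome 3 (106147554 to 106167564), ran between 4.76 and 74.8 CPM in the 8 libraries and had 0 counts in the other 4. Its near copy Chil4 had 1 count over all 12 libraries.

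Trem2, on chromosome 17 (48346401 to 48354147), ran between 4.85 and 64.2 CPM in the 8 libraries and reached at most 0.597 CPM in the other 4. Marco, on chromosome 1 (120474538 to 120505024), ran between 2.17 and 12.5 CPM, with 0 in the other 4. For Chil3, VIN-R 1 was lowest and PAC-R 1 highest of the 8, and for Trem2 VIN-R 1 was lowest and VIN-R 2 highest. Of the 8 libraries both of ERI-R were below both of PAC-R for Chil3, Trem2 and Marco as well. This order was not particular to the members. Csf1r had it too, at 57.9 and 37.0 CPM in ERI-R against 199 and 72.1 CPM in PAC-R. So did Lyz2, at 353 and 232 CPM against 1399 and 509 CPM. The share of all genes with this order was not counted. The 10 members varied 5.77 to 15.7 times between the lowest and highest of the 8 libraries.

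Cd163, on chromosome 6 (124304656 to 124330527), broke this pattern. It had 1.98, 2.21 and 1.36 CPM in ERI-R 1 to 3, 0.383, 0.337 and 0.299 in PAC-R, 0.418, 0.365 and 0.221 in VIN-R, and 0.217, 0.335 and 0.437 in Control. All 3 ERI-R libraries were above all 9 others, ERI-R 3 included, in which Lyz2, Csf1r and Ptprc had 0 counts. The reads behind it were few, with 26, 29 and 13 expected counts in ERI-R against 3 to 5 in each of the other 9 libraries. In TPM it stood at 1.46, 1.42 and 0.390 in ERI-R, against 0.130 to 0.270 in the other 9.

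**Figure D2:**
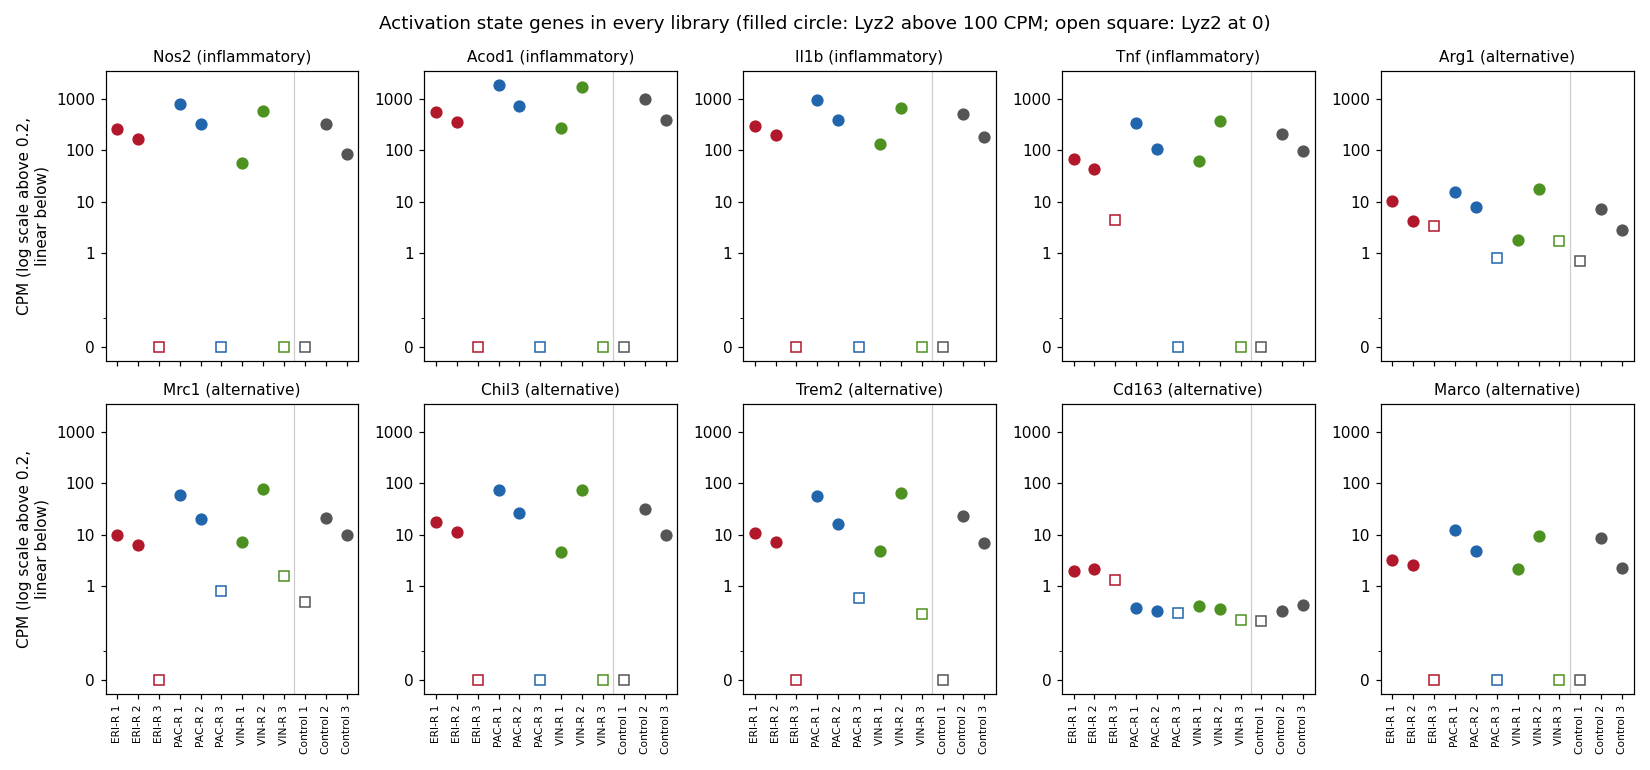
CPM of each member in all 12 libraries, on an axis that is logarithmic above 0.2 CPM and linear below it, with ERI-R, PAC-R and VIN-R left of Control and open squares for the 4 libraries with Lyz2 at 0. Of the members, only Cd163 is higher in all 3 libraries of ERI-R than in every library of the other groups.

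The first comparison asks whether any member differed between the lines over all 12 libraries, with edgeR's quasi-likelihood test and Benjamini-Hochberg adjustment over 14226 genes. Cd163 was the only member called in any of the 6 comparisons. It averaged 1.85 ± 0.436 CPM in ERI-R, against 0.339 ± 0.0423 in PAC-R, 0.335 ± 0.102 in VIN-R and 0.329 ± 0.110 in Control (SD, n = 3 each). Its log2 fold change was 2.47 ± 0.47 (SE) in ERI-R against Control, with an edgeR adjusted p of 0.00425 and a higher value in 3 of 3 ERI-R libraries. Against PAC-R it was 2.42 ± 0.47 (edgeR adjusted p = 0.00489) and against VIN-R 2.44 ± 0.47 (edgeR adjusted p = 0.00408).

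In ERI-R against Control 1 of 10 members was called, where 19.2% of all genes tested were, and libraries of 1 of 10 members did not overlap, against 35.7% of all genes. In ERI-R against PAC-R 1 of 10 was called, with 18.7% of all genes, and in ERI-R against VIN-R 1 of 10, with 19.3%. These 3 comparisons share the ERI-R libraries. The share of members called was below that of all genes in each of them. In PAC-R against Control, VIN-R against Control and PAC-R against VIN-R, edgeR called 0 members and 0% of all genes. No member had an unadjusted p under 0.05 there, and DESeq2 called 0 members. The other 9 members had standard errors between 1.15 and 3.04 on the log2 scale, so a difference of several fold in them was not detectable over all libraries. Over all libraries the median log2 fold change in ERI-R against Control was -0.54 for the inflammatory members and -0.62 for the alternative ones, against -0.0044 over all genes. No direction can be read from these 2 medians, given the standard errors above. The other members had 27 fold changes against Control over all lines together, and leaving out 1 library turned the sign of some. Without ERI-R 1, 2 or 3 these were 1, 1 and 3, and without Control 1, 2 or 3 they were 6, 6 and 2. The most was 9, without VIN-R 2, which is in neither group of these medians. These numbers are not split by comparison. In the 8 libraries alone Cd163 was again the only member called, with a log2 fold change of 2.50 in ERI-R against Control (edgeR adjusted p = 0.0128).

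The second comparison sets each member against Csf1r in the 8 libraries, since the level of macrophage transcripts differed several fold between libraries of 1 line. Dividing by Csf1r removed much of the spread: the SD of log2 values over the 8 libraries was 0.193 for the ratio of Acod1, against 1.04 for its CPM. For Il1b it was 0.292 against 0.981, for Marco 0.247 against 1.01, for Nos2 0.648 against 1.304 and for Arg1 0.639 against 1.15. For Cd163 it was larger with the division, 1.90 against 1.15.

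**Figure D3:**
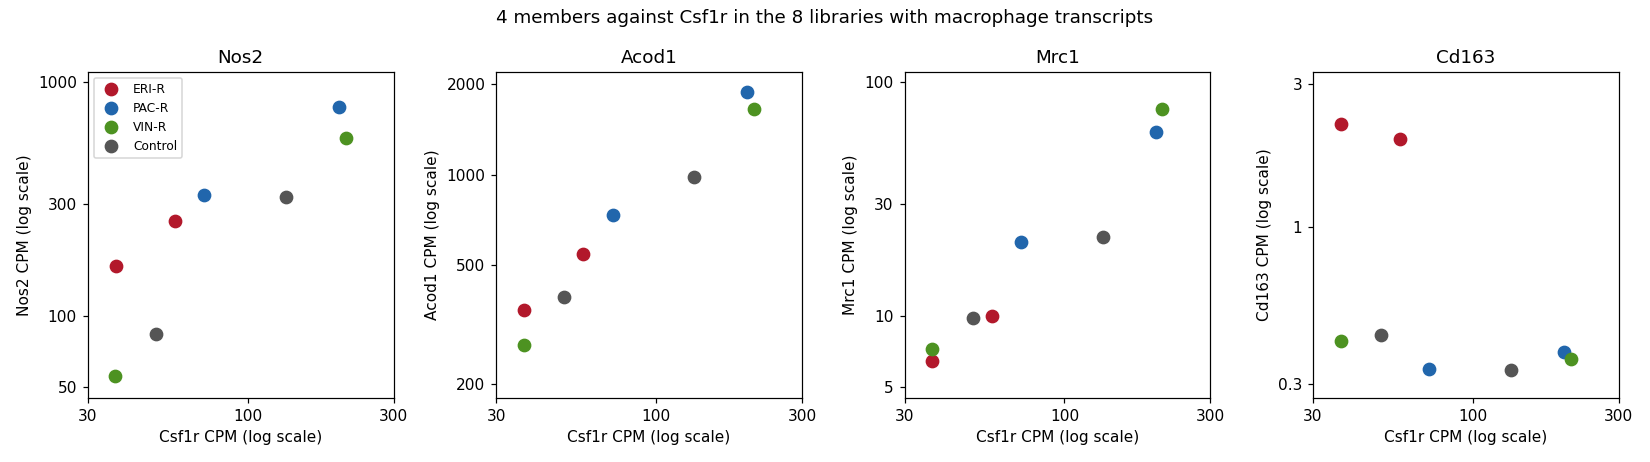
CPM of Nos2, Acod1, Mrc1 and Cd163 against Csf1r CPM in the 8 libraries, both axes logarithmic, 2 points each for ERI-R, PAC-R, VIN-R and Control. Nos2, Acod1 and Mrc1 climb with Csf1r, whereas Cd163 stands high in both ERI-R libraries, where Csf1r is 57.9 and 37.0 CPM.

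Relative to Csf1r, Nos2 was the inflammatory member that differed most. It stood at 4.41 and 4.42 counts per Csf1r count in ERI-R and at 3.94 and 4.55 in PAC-R, against 1.5 and 2.75 in VIN-R and 1.68 and 2.41 in Control. Neither ERI-R nor PAC-R overlapped Control, and VIN-R did. The log2 fold change against Control was 1.11 in ERI-R and 1.05 in PAC-R, with edgeR adjusted p-values of 0.970 and 0.962.

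Acod1 stood at 9.41 and 9.55 in the ERI-R libraries, 9.47 and 10.2 in PAC-R, 7.32 and 7.94 in VIN-R, and 7.34 and 7.79 in Control, a log2 fold change of 0.32 in ERI-R and 0.38 in PAC-R against Control. Il1b stood at 5.06 and 5.31 in the ERI-R libraries, 4.70 and 5.33 in PAC-R, 3.65 and 3.23 in VIN-R, and 3.73 and 3.58 in Control, a log2 fold change of 0.50 in ERI-R and 0.46 in PAC-R. Relative to Csf1r both genes had ERI-R and PAC-R above Control with no overlap, and VIN-R near Control. With the geometric mean of the identity genes in place of Csf1r, Il1b was at only 0.07 in ERI-R and 0.03 in PAC-R against Control. Tnf went the other way in ERI-R, at 1.18 and 1.17, against 1.71 and 1.45 in PAC-R, 1.65 and 1.79 in VIN-R, and 1.57 and 1.92 in Control. Its log2 fold change in ERI-R against Control was -0.57 (edgeR adjusted p = 0.970).

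Il1b and Tnf, both cytokines of the NF-kappaB pathway, therefore stood in another proportion in ERI-R, also when set directly against each other. The TPM of Il1b was 5.40 and 5.65 times that of Tnf in ERI-R, 3.48 and 4.66 times in PAC-R, 2.83 and 2.30 times in VIN-R, and 3.00 and 2.35 times in Control. Both ERI-R libraries lay above the other 6, which is given as a description with no test.

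Arg1 stood at 0.179 and 0.115 counts per Csf1r count in the ERI-R libraries, 0.0785 and 0.111 in PAC-R, 0.0498 and 0.0830 in VIN-R, and 0.0534 and 0.0575 in Control. Its log2 fold change against Control was 1.41 in ERI-R and 0.77 in PAC-R, with no overlap in either. ERI-R 3, with 0 Csf1r counts, still had 3.46 CPM of Arg1, against 4.27 CPM in ERI-R 2, so the ratio in ERI-R also holds Arg1 that need not come with Csf1r. The TPM of Nos2 over that of Arg1 overlapped Control in each line, at 7.70 and 12.3 in the ERI-R libraries, 16.1 and 13.2 in PAC-R, 9.68 and 10.6 in VIN-R, and 14.4 and 9.33 in Control.

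Mrc1 lay with Control in ERI-R and above it in PAC-R. It stood at 0.173 and 0.175 in the ERI-R libraries, 0.307 and 0.287 in PAC-R, 0.197 and 0.368 in VIN-R, and 0.163 and 0.197 in Control. Its log2 fold change was 0.73 in PAC-R against Control. Chil3 averaged 0.309 in ERI-R, 0.370 in PAC-R, 0.240 in VIN-R and 0.217 in Control, and Trem2 0.192, 0.258, 0.219 and 0.158 in the same groups. For both, ERI-R and PAC-R did not overlap Control, and the 2 VIN-R libraries lay on either side of it. Their log2 fold changes were 0.51 and 0.28 in ERI-R against Control and 0.77 and 0.71 in PAC-R against Control. Marco, at 0.0453 to 0.0720 over the 8 libraries, overlapped between each line and Control.

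Cd163 stood at 0.0342 and 0.0597 in the ERI-R libraries, 0.00193 and 0.00467 in PAC-R, 0.0113 and 0.00175 in VIN-R, and 0.00251 and 0.00871 in Control. Its log2 fold change in ERI-R against Control was 3.15, which edgeR did not call relative to Csf1r (adjusted p = 0.255). ERI-R 3, which had Cd163 but 0 Csf1r counts, has no such ratio and enters none of these values.

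**Figure D4:**
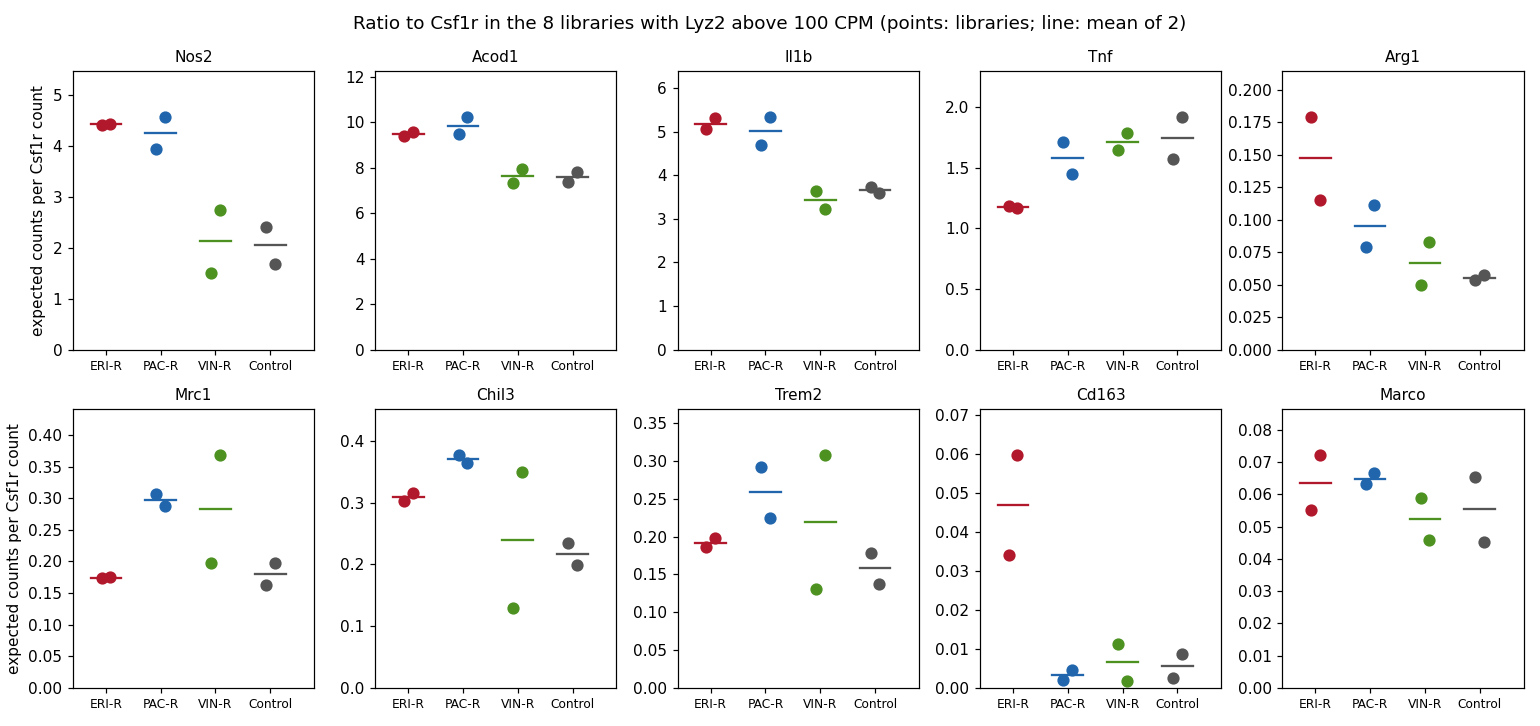
Expected counts per Csf1r count in the 8 libraries, 2 points and their mean for ERI-R, PAC-R, VIN-R and Control, each panel on its own linear axis from 0. ERI-R and PAC-R lie above Control without overlap for Nos2, Acod1, Il1b, Arg1, Chil3 and Trem2, and Tnf is lowest in ERI-R.

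None of these differences was called. Relative to Csf1r, edgeR over 14387 genes called 0 of 10 members in every comparison and in the test of any difference among the 4 groups, which called 6.85% of all genes. It called 5.03% of all genes in ERI-R against Control, 5.26% in ERI-R against PAC-R, 6.1% in ERI-R against VIN-R and 0% in the other 3 comparisons. At an unadjusted p under 0.05 there was 1 member, Cd163, in each of the 3 comparisons of ERI-R, and 0 members elsewhere. DESeq2 called Cd163 in ERI-R against PAC-R and 0 members in the other comparisons. Libraries of 8 of 10 members did not overlap in ERI-R against Control (7 higher, 1 lower), where 45.5% of all genes did not. In PAC-R against Control this held for 7 of 10, all higher, against 11.2% of all genes, and in VIN-R against Control for 0 of 10, against 4.91%. Dividing by Csf1r moved the median log2 fold change of all genes to 0.63 in ERI-R, -0.53 in PAC-R and 0.20 in VIN-R against Control. The 4 inflammatory members had medians of 0.41, 0.42 and -0.0049 in the same comparisons, and the 6 alternative members of 0.39, 0.72 and 0.21. The 24 macrophage identity genes tested had medians of 0.32, 0.37 and 0.11. A median above 0 in ERI-R and PAC-R was thus not particular to the members. All members share the Csf1r count of their library as divisor, so they are not independent of each other. Some other macrophage genes stood higher in ERI-R and PAC-R too, and others did not. Lyz2 had 6.10 and 6.27 counts per Csf1r count in the ERI-R libraries, 7.04 and 7.06 in PAC-R, 4.92 and 6.64 in VIN-R, and 5.33 and 5.68 in Control. Ptprc had 2.11 and 2.01 in ERI-R and 1.93 and 2.12 in PAC-R, against 1.54 and 1.65 in Control. Adgre1 overlapped Control, at 3.24 and 3.51 in ERI-R and 2.94 and 3.43 in PAC-R, against 2.98 and 3.30. With Ptprc, the leukocyte surface phosphatase CD45, in place of Csf1r the log2 fold changes of Acod1 and Trem2 in ERI-R against Control were -0.04 and -0.10.

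The standard errors of that fit lay between 1.17 and 1.47 for every member, since it gave all 14387 genes nearly the same spread. In a fit added after seeing the data, only the 672 genes that came with the macrophage transcripts were tested, which holds 8 members and leaves out Arg1 and Cd163. Standard errors fell to between 0.167 and 0.407, and edgeR again called 0 of 8 members in each line against Control, with 3 of them at an unadjusted p under 0.05 in ERI-R, 3 in PAC-R and 0 in VIN-R. Nos2 came nearest, at 1.11 ± 0.31 in ERI-R against Control (SE, edgeR adjusted p = 0.0822) and 1.05 ± 0.31 in PAC-R against Control (edgeR adjusted p = 0.116). Il1b was at 0.50 ± 0.17 and Tnf at -0.57 ± 0.19 in ERI-R against Control (edgeR adjusted p = 0.109 and 0.107). That fit called 1.64% of its genes in ERI-R against Control and 0% in PAC-R against Control. An exact permutation test of any difference among the 4 groups used the 105 ways to part 8 libraries into 4 pairs. It gave p-values between 0.0667, for Acod1 and Il1b, and 0.619, for Marco. Its smallest possible p is 0.00952, and 10 members were tested.

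Of the ratios to Csf1r, some genes ran closely with a member over the 8 libraries, given as Pearson's r over 452 genes of the macrophage transcripts and without a test, since all share the divisor. Nos2 was most like Ms4a4c (0.997) and Il1rn (0.995), the natural antagonist of the interleukin 1 receptor. Acod1 was most like the scavenger receptor Msr1 (0.993), Il1b like the complement factor Cfb (0.990) and Tnf like the neutrophil chemokines Cxcl1 (0.922) and Cxcl2 (0.904). Arg1 was most like Maf (0.936), Mrc1 like the fungal glucan receptor Clec7a (0.961), Chil3 like S100a9 (0.995) and Marco like Rac2 (0.801).

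S100a9 and Ngp (r of 0.954 with Trem2) are known from neutrophils and their precursors. The 12 granulocyte markers summed to between 28.2 and 411 CPM over the 8 libraries, against 4.98 to 44.7 CPM over the rest, and 5 of them were above 1 CPM in all 8. The defining neutrophil marker Ly6g had 0 counts in all 8. Their part in the levels of Chil3 and Trem2 was not tested. Lymphocyte markers summed to at most 3.76 CPM in the 8 libraries, and Cd3e and Klrb1c had 0 counts in all 12. Dendritic and mast cell markers summed to at most 34.3 CPM and endothelial and erythroid ones to at most 18.5 CPM there. Of these lists, Kit (14.1 CPM in ERI-R against 0.367 CPM in Control) and Zbtb46 were higher and Trac lower in ERI-R. Of 6 epithelial markers, which summed to 986 to 2912 CPM in the 8 libraries, 4 were higher in ERI-R, Krt14 and Krt5 by the most, at 441 CPM against 2.82 CPM and 6.6 CPM against 0.0570 CPM.

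The wider sets of genes around the members were tested over all 12 libraries, with the share of genes called higher in ERI-R against Control at 9.51% and lower at 9.69%. Of 32 other genes of inflammatory activation 31 were tested, and 1 was higher and 0 lower in ERI-R. It was Ass1, which rebuilds arginine from citrulline, at 211 CPM in ERI-R against 17.4 CPM in Control (log2 fold change 3.6 ± 0.78, edgeR adjusted p = 0.00819). The list's median log2 fold change was -0.41, against -0.0044 over all genes tested. The cytokines Il6 and Il12b and the chemokine Cxcl9 were not called.

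Of 28 other genes of alternative activation 16 were tested, and 1 was higher and 3 lower in ERI-R than in Control, with a median of -0.82. Gas6, a ligand of the Mertk and Axl receptors, was higher at 265 CPM against 14.8 CPM (log2 fold change 4.17, edgeR adjusted p = 0.0100). The regulators Klf4 and Socs2 were lower, at 28.4 CPM against 133 CPM and at 50.4 CPM against 209 CPM. Retnla, Lyve1 and Cd209a, which mark alternatively activated or resident macrophages, had 0 counts in all 12 libraries. Other genes of this list were present: 14 of the 28 were above 1 CPM in all 8 libraries with Lyz2, and 11 stayed under 1 CPM in all 12. Folr2 ran between 5.93 and 56.6 CPM and Il10 between 4.28 and 29.1 CPM in the 8.

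Of 22 genes of the lipid and lysosome programme that goes with Trem2, all were tested, and 1 was higher and 5 lower in ERI-R, with a median of -0.72. Spp1, osteopontin, averaged 744 CPM in ERI-R against 3904 CPM in Control (log2 fold change -2.39, edgeR adjusted p = 0.00564). The lysosomal protease Ctsl averaged 229 CPM in ERI-R against 1408 CPM in Control (-2.62), and the fatty acid carrier Fabp5 531 CPM against 72.4 CPM (2.88). Of 12 other scavenger receptors 9 were tested, and 1 was higher (Scara5, log2 fold change 1.82) and 2 lower (Colec12, -4.00, and Scara3, -3.52), with a median of -0.56.

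Of 12 signals that set macrophage states 9 were tested, and 1 was higher and 4 lower in ERI-R than in Control, with a median of -1.49. Csf2, the growth factor GM-CSF, had 1.44, 1.37 and 0 CPM in ERI-R 1 to 3, against 27.8, 34.1 and 28.9 CPM in Control 1 to 3 (log2 fold change -4.96, edgeR adjusted p = 0.00229). It was lower in 3 of 3 ERI-R libraries, and Control 1, without Lyz2, held as much of it as the Control libraries with Lyz2. Tslp, a cytokine of type 2 immunity, had 3.57, 3.20 and 0.210 CPM in ERI-R against 91.8, 82.3 and 98.7 CPM in Control (log2 fold change -5.26). Il4 had 0 counts in all 12 libraries. Of 16 receptors for such signals all were tested and 0 were called in ERI-R against Control, with a median of -0.34. Of 12 genes of arginine and itaconate metabolism 10 were tested, with Ass1 higher and 0 lower, and a median of 0.13.

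Of the 25 macrophage identity genes 24 were tested, and 0 were higher or lower in ERI-R against Control, with a median of -0.65. In PAC-R against Control and VIN-R against Control 0 genes of any of these lists were called, as for all genes. Ass1, Gas6, Spp1 and Ctsl differed between the lines also where Lyz2 was at 0: in ERI-R 3 they stood at 281, 369, 250 and 115 CPM, against 7.06, 6.79, 3579 and 1550 CPM in Control 1. Fabp5, Klf4, Socs2, Colec12, Scara3 and Scara5 differed there too. In ERI-R 3 these had 952, 47.3, 60.6, 0.630, 1.57 and 30.4 CPM, against 59.5, 136, 145, 14.6, 27.8 and 8.66 CPM in Control 1. Within PAC-R, VIN-R and Control, Ass1 and Gas6 moved with the Lyz2 level too. Ass1 had 46.2, 25.2 and 14.1 CPM in PAC-R 1 to 3, 9.07, 34.4 and 6.61 CPM in VIN-R 1 to 3, and 7.06, 30.6 and 14.6 CPM in Control 1 to 3, in each group lowest in the library without Lyz2, and Gas6 had the same order of libraries. In ERI-R, Spp1 and Ctsl were lowest in the library without Lyz2, and Ass1 and Gas6 highest in it. In the other groups Spp1 was lowest in that library too. Ctsl was highest in it there, at 1893 CPM in PAC-R 3, 2100 CPM in VIN-R 3 and 1550 CPM in Control 1. The part of the macrophage transcripts in these levels was not tested.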

How the data were processed

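Polyadenylated RNA of 12 libraries was sequenced after a Kapa mRNA HyperPrep preparation from 200 ng of RNA, as paired ends of 76 bases, per the labels' protocols. The submitters' processing notes list RSEM 1.3.2, STAR 2.7.2b, cutadapt 2.4 and bcl2fastq 2.20.0.422, and the build GRCm38. Neither annotation nor strand setting is given in the sources used here. The authors deposited, per the file headers, an expected count (an estimated number of read pairs, not normalized) and TPM (scaled per length and to a fixed library total by the authors) for 55573 genes, of which 55394 had a symbol. Positions are from GENCODE M21.

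The members and all gene lists were chosen with earlier results of these data known. All 10 members are named, and from each other list up to 2 genes called higher and 2 called lower with the largest change. Some genes of the marker lists and of the likeness comparison are not reported here.

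Rounding the expected counts altered 15.3% of nonzero values, and the rounded counts were tested with edgeR 4.0.16 (filterByExpr, TMM, robust glmQLFit, R 4.3.3). The 12-library fit had 8 residual degrees of freedom, with a common biological coefficient of variation at 0.591. The fit relative to Csf1r used the 8 libraries, with the Csf1r count in place of the library size (4 residual degrees of freedom, coefficient 0.717). A gene was called at an adjusted p under 0.05 over all genes tested. The procedure was also run on simulated counts. Their spread was set far below that of these data, so the run does not give the power or error rate here. DESeq2 1.42.0, other scalings, filters and reference genes, the replicate number as a block and leaving out each library were tried. Same-numbered libraries of the 3 resistant lines deviated from their group means together (9 correlations of 0.0829 to 0.917, 8 over 0.1, and all over 0.1 except 1 between ERI-R and VIN-R), whereas with Control 6 of 9 were negative. Number 2, with Lyz2 above 100 CPM in every group, had correlations with Control of 0.415 for ERI-R, 0.494 for PAC-R and 0.742 for VIN-R. The library without Lyz2 was number 3 in each line and number 1 in Control. Pairing by number and a shared level of macrophage transcripts therefore cannot be told apart by this check. The labels do not say what a number marks. The SD and SE values include the variation among these libraries, whereas the floors cover counting error only.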

Additional observations from a re-analysis of the deposited data

How the results depend on the processing

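Cd163 stayed called and higher in ERI-R under all 20 alternatives of the fit over all libraries against Control and all 22 against PAC-R and VIN-R, with log2 fold changes of 2.33 to 2.78 against Control, 2.30 to 2.74 against PAC-R and 2.2 to 2.75 against VIN-R, and adjusted p-values up to 0.0281. With a 2-level term for Lyz2 above 100 CPM, 2 members were called in ERI-R against VIN-R, Cd163 and Mrc1 (log2 fold change -2.63, adjusted p = 0.0402, against -2.36 and 0.470 without the term). Leaving out 1 library moved that Mrc1 value between -3.09 and 0.31, the last without VIN-R 2. Relative to Csf1r, DESeq2 called 1 member, Cd163, in ERI-R against PAC-R. Leaving out 1 library gave 0 to 1 called members in ERI-R against Control, PAC-R and VIN-R and in the test of any group, and the 1 was Cd163, called without VIN-R 1 or, except against VIN-R, without VIN-R 2. Cd163 in ERI-R against Control then had adjusted p-values of 0.0468 and 0.0492. The other references reversed 5 uncalled values: Acod1 in ERI-R against Control was -0.04 with Ptprc and -0.11 with the geometric mean of the identity genes, Acod1 in PAC-R against Control was -0.04 with that mean, and Trem2 in ERI-R against Control was -0.10 with Ptprc and -0.16 with that mean. The cause was not tested. Il1b fell to 0.07 with that mean in ERI-R against Control, and in PAC-R against Control to 0.03 with that mean and 0.10 with Lyz2, where Acod1 was 0.02. Nos2 kept its direction, at 0.67 to 1.39 in ERI-R and 0.62 to 1.34 in PAC-R against Control.

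With the replicate number as a block, Cd163 was called in ERI-R against Control at 2.44 (adjusted p = 0.0131) and no count of called members moved. With the block over the 3 resistant lines only, added after seeing the data, Cd163 was at 2.48 in ERI-R against PAC-R (adjusted p = 0.0106) and 2.54 against VIN-R (adjusted p = 0.00902). The block turned the sign of 17 of 27 fold changes of the other members over all libraries, none of them called. Leaving out 1 library turned 9 without VIN-R 2, 6 each without Control 1, Control 2 or PAC-R 1, and 3 or fewer otherwise. Depth limits Cd163 most, with 3 to 5 counts in 9 libraries.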
